A study of Mus musculus with 12 samples.

Results

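Alas2, Alas1, Hba-a1, Hba-a2, Hbb-bs, Hbb-bt and Fech, 7 genes of heme synthesis and of adult hemoglobin, were followed in glomerular RNA from the BALB/cAjcl (Ajcl) and BALB/cByJcl (ByJcl) substrains. The genes were taken by symbol, 7 of the 26264 symbols in the count tables. They were chosen by name once results of these libraries were known, so the counts of these genes in all 12 libraries, and every contrast made from them, count as used in the choice. Their differences between groups are therefore given as descriptions, with standard errors and without p-values, and whether a member passed the threshold used for all genes is stated only as a description. Of the 7, 3 had counts (Alas2, Alas1 and Fech) and the same 3 passed the filter on low counts. The 4 adult globin genes were listed at 0 in all 12 libraries.

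The mice were 8-week-old males, and each of the 4 groups held 3 libraries. Baseline Ajcl and baseline ByJcl mice are labelled untreated, although the treatment protocol also mentions saline for control animals. Day 5 Ajcl and Day 5 ByJcl mice had received a single injection of adriamycin (ADR, doxorubicin) at 10 mg/kg and were sampled on Day 5. ADR is an anthracycline that is toxic to podocytes and used to model glomerular injury, and the study asked how the substrains differ in that injury. All animals were perfused through the left ventricle with buffered saline that carried magnetic beads, so every sample is a bead-enriched glomerular preparation that may hold tubule and blood cells. The labels do not tie each library to a named animal, so spread within a group may be partly technical. Baseline and Day 5 libraries also came in separate tables, and table and treatment cannot be told apart.

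Totals were 42198416 to 54687045 counts per library. Podocyte markers summed to between 7129 and 20860 CPM (counts scaled to a common library total, so that libraries can be compared) in every library, so podocyte RNA was present throughout. The Day 5 Ajcl replicate 1 library had the highest proximal tubule signal, 10730 CPM summed over 11 markers against 766.6 to 7579 in the other libraries. The study left that library out for low glomerular purity. Fold changes below come from the other 11 libraries, and the values with all 12 stand beside them where a call differs.

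Heme is made in a chain of enzymatic steps, of which the first, the joining of glycine and succinyl-CoA by 5-aminolevulinate synthase, sets the rate. Most cells use the housekeeping enzyme ALAS1, while developing red cells use ALAS2, encoded by a different gene on the X chromosome. Ferrochelatase, encoded by Fech, inserts iron into protoporphyrin in the last step. Reticulocytes, the youngest red cells in blood, still carry globin and ALAS2 mRNA, and kidney tubule cells make heme for their mitochondria and cytochromes.

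The adult alpha-globin genes Hba-a1 and Hba-a2 encode the alpha chains of hemoglobin, and Hbb-bs and Hbb-bt its beta chains. Within each pair the coding sequences in the reference are nearly the same, and the stretches below show this, because all 4 genes had no counts. Each line gives 150 coding bases of the GRCm39 reference in the sense direction, bases 280 to 429 for the alpha genes and 295 to 444 for the beta genes counted from 1 at the start codon, and the capital marks the single coding base at which the pair differs (C381T from Hba-a1 to Hba-a2 and C417T from Hbb-bs to Hbb-bt).
Hba-a1: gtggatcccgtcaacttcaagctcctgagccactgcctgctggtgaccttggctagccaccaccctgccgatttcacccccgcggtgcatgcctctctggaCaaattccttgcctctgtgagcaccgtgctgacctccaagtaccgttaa
Hba-a2: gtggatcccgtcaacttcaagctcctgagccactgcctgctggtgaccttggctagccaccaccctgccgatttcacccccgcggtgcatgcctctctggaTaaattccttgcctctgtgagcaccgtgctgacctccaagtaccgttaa
Hbb-bs: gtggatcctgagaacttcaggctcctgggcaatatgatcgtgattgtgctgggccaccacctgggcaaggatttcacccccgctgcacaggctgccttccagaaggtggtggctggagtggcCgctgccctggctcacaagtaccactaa
Hbb-bt: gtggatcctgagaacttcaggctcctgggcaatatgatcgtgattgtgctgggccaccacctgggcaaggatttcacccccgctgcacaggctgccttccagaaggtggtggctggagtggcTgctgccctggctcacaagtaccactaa

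Hba-a1 and Hba-a2 lie on chromosome 11 (chr11:32233186-32234504 and chr11:32246168-32247320, plus strand), and Hbb-bs and Hbb-bt on chromosome 7 (chr7:103475730-103482989 and chr7:103461727-103465047, minus strand), each with 3 exons, in GRCm39. Of all 150-base windows of the main transcript, 61.0% of those of Hba-a1 also occurred in Hba-a2 and 72.1% of those of Hba-a2 in Hba-a1. For Hbb-bs and Hbb-bt the shares were 54.6% and 50.6%. A read from such a window does not by itself tell the genes of the pair apart, although its mate may, and how such read pairs were counted is not given in the sources used here.

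Hba-a1, Hba-a2, Hbb-bs and Hbb-bt had 0 counts in each of the 3 libraries of Ajcl baseline, ByJcl baseline, Ajcl Day 5 and ByJcl Day 5. A count of 0 allows up to 3 counts, which is 0.0546 to 0.0693 CPM depending on the library. The other beta-like rows Hbb-b1, Hbb-b2, Hbb-bh1 and Hbb-bh2 were at 0 in all 12 libraries as well. Hbb-b1 and Hbb-b2 name the adult beta genes of another haplotype of the locus. Which haplotype these BALB/c substrains carry was not examined, so the reference sequences and shared windows above may not describe their alleles. Of 26264 symbols, 4021 (15.3%) were at 0 throughout. What part counting of shared reads had in the zeros was not tested, and the rows hold no information on whether globin mRNA differed between groups.

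The remaining globin rows were sparse. The embryonic gene Hba-x had 2, 10 and 2 counts in the 3 ByJcl Day 5 libraries and 0 in the other 9. Hbb-y, an embryonic beta-like gene, had 2 counts in ByJcl Day 5 replicate 1 and 0 elsewhere. The theta-like genes Hbq1a and Hbq1b had counts at baseline alone, 6 and 4 for Hbq1a in Ajcl replicates 1 and 3, and at most 8 for Hbq1b, in 5 of the 6 baseline libraries. These counts are at or near the 3-count limit and carry no comparison.

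Alas2, the erythroid 5-aminolevulinate synthase, was lower in every Day 5 library than in every baseline library. The Ajcl baseline libraries had 10.3, 7.28 and 7.05 CPM (446, 345 and 330 counts) and the Ajcl Day 5 libraries 0.193, 0.818 and 0.664 CPM (9, 37 and 33 counts). The ByJcl baseline libraries had 5.79, 4.45 and 8.21 CPM (269, 212 and 451 counts) and the ByJcl Day 5 libraries 0.179, 0.506 and 0.941 CPM (8, 22 and 44 counts). The highest Day 5 value, 0.941 CPM in ByJcl replicate 3, stood below the lowest baseline value, 4.45 CPM in ByJcl replicate 2. Among the 17002 genes tested, 1.66% had every Day 5 library below every baseline library.

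**Figure D1:**
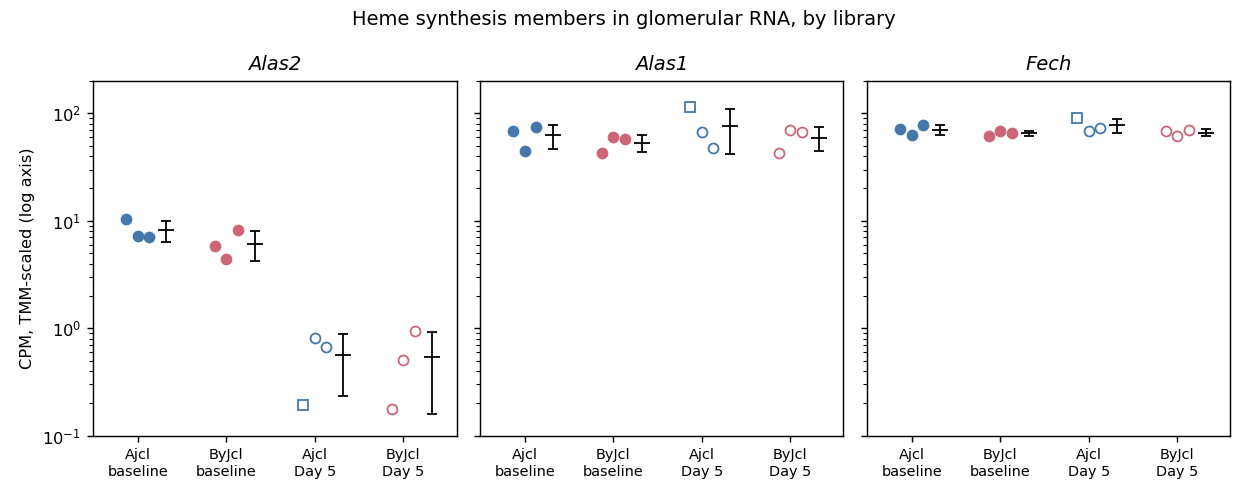
CPM of Alas2, Alas1 and Fech in each library on a shared log axis, with filled points for baseline, open points for Day 5, a square for Ajcl Day 5 replicate 1, and bars for the mean ± SD of 3 libraries. All 6 Day 5 points of Alas2 lie at or below 0.941 CPM and all 6 baseline points at or above 4.45 CPM, while Alas1 and Fech overlap between baseline and Day 5.

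The mean Alas2 level was 8.21 ± 1.82 CPM (SD, n = 3) in Ajcl baseline and 0.558 ± 0.325 CPM (SD, n = 3) in Ajcl Day 5. In ByJcl it was 6.15 ± 1.91 CPM (SD, n = 3) at baseline and 0.542 ± 0.382 CPM (SD, n = 3) at Day 5. Without Ajcl Day 5 replicate 1, which the fit leaves out, the Ajcl Day 5 mean was 0.741 ± 0.108 CPM (SD, n = 2). The fitted log2 fold change of Day 5 against baseline was -3.46 ± 0.54 (SE) in Ajcl, a 10.98-fold lower level, and -3.50 ± 0.47 (SE) in ByJcl, an 11.3-fold lower level. In bulk RNA, fewer cells of a type and less RNA per cell cannot be told apart.

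Alas2 was the only 1 of the 3 fitted members below an adjusted p of 0.05 (edgeR quasi-likelihood test, Benjamini-Hochberg adjustment) in Ajcl, where 0.00588% of the tested genes passed in the lower direction, a single gene of 17002, which was Alas2 itself. Over both directions 0.312% of genes passed in Ajcl. In ByJcl it was again 1 of 3, against 4.83% of tested genes lower and 10.6% in either direction. Since the member was picked with this difference known, nothing is read from those counts. In Ajcl the call was not kept under the replicate block, nor when any of the 5 Ajcl libraries in the comparison was left out, with log2 fold changes between -3.62 and -3.27 in those 5 fits. In ByJcl all 18 alternatives kept it.

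Alas2 lies on the X chromosome (chrX:149330371-149353634, plus strand, GRCm39) with 11 exons in its main transcript. Its exons share 311 bases, 11.6% of the annotated exonic bases, with the DNA repair gene Apex2 on the opposite strand. Apex2 itself had 7.87 ± 1.46 CPM (SD, n = 3) in Ajcl baseline, 6.75 ± 1.31 CPM (SD, n = 3) in Ajcl Day 5, 6.61 ± 0.61 CPM (SD, n = 3) in ByJcl baseline and 6.17 ± 0.42 CPM (SD, n = 3) in ByJcl Day 5. Its adjusted p was 0.574 in Ajcl and 0.726 in ByJcl (edgeR), so no loss like that of Alas2 was measured in the neighbour. The libraries are strand-specific, while the strand setting of the counting is not given in the sources used here.

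The 2 synthase genes differ in what lies before their start sites, and both upstream windows are shown because their Day 5 differences are so unlike. The lines give 250 bases 5′ to 3′ from RefSeq in build GRCm38.p6, a different build from that of the counts, at chrX:150547167-150547416 (plus strand) for Alas2 and chr9:106247955-106248204 (minus strand) for the first Alas1 start. Capitals mark a match to AGATAA or AGATAG or TGATAA or TGATAG on either strand, the letters bound by the erythroid factor GATA1 and its relatives.
Alas2: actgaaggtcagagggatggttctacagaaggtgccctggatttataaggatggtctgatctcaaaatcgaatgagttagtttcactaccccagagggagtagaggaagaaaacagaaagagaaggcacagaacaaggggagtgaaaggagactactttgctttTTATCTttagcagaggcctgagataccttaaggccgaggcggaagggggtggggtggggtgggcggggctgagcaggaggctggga
Alas1: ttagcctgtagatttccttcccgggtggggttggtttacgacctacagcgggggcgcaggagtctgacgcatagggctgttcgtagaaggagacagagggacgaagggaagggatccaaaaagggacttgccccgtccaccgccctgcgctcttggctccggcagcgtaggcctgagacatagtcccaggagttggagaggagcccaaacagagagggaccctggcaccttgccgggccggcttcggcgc

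The Alas2 window held 1 such match, starting 86 bases before the start site, and neither Alas1 start held any. Hba-a1, Hba-a2 and Hbb-bs had 1 match each and Hbb-bt none. Of 32851 promoters of the same length, 26.5% held at least 1 match, so a match describes the letters and not a site in use. The coding sequences of Alas1 and Alas2 were 62.0% identical after alignment and shared no 150-base window (0.0%), so reads of that length could tell the 2 genes apart.

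Alas1, the housekeeping synthase, did not show the difference seen in Alas2. Its levels were 69.0, 44.2 and 74.2 CPM in Ajcl baseline and 114.1, 67.1 and 47.3 CPM in Ajcl Day 5. In ByJcl they were 42.4, 60.3 and 57.7 CPM at baseline and 42.7, 69.3 and 66.7 CPM at Day 5. Baseline and Day 5 overlapped in both substrains, and the single highest value belonged to Ajcl Day 5 replicate 1, the library with the most tubule signal. The log2 fold change of Day 5 against baseline was -0.11 ± 0.26 (SE) in Ajcl and 0.14 ± 0.24 (SE) in ByJcl. With all 12 libraries the Ajcl value was 0.29 ± 0.31 (SE), of opposite sign.

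Fech was the steadiest of the 3. Its levels were 71.2, 62.5 and 77.8 CPM in Ajcl baseline and 90.4, 68.7 and 72.4 CPM in Ajcl Day 5. In ByJcl they were 61.9, 68.9 and 65.4 CPM at baseline and 68.1, 61.3 and 69.7 CPM at Day 5. The groups overlapped throughout, and Ajcl Day 5 replicate 1 was again the highest. Log2 fold changes of Day 5 against baseline were 0.02 ± 0.11 (SE) in Ajcl and 0.01 ± 0.10 (SE) in ByJcl. Alas1 is on chromosome 9 (chr9:106110642-106135734, minus strand, 11 exons) in GRCm39, and Fech is on chromosome 18 with 10 exons.

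Per kilobase of the main transcript, the order of levels was Alas1, Fech and Alas2 in 12 of 12 libraries, with the globin genes at 0. In ByJcl baseline, Alas1 had 15.7 ± 2.84, Fech 10.2 ± 0.54 and Alas2 3.02 ± 0.94 CPM per kilobase (SD, n = 3). In Ajcl baseline the levels were 18.3 ± 4.70, 10.997 ± 1.19 and 4.03 ± 0.89 CPM per kilobase (SD, n = 3). Alas1 and Fech came close to each other, with the lowest Alas1 library at 12.4 and the highest Fech library at 14.1 CPM per kilobase. Alas1 exceeded Alas2 between 3.63 and 8.10 times per kilobase in the baseline libraries and between 42.3 and 353 times in the Day 5 libraries. The 353 belongs to Ajcl Day 5 replicate 1, which had 9 counts of Alas2, and without it the highest Day 5 ratio was 142.5.

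None of the 3 fitted genes was called between the substrains. For ByJcl against Ajcl at baseline the log2 fold change was -0.39 ± 0.40 (SE) for Alas2, -0.19 ± 0.24 (SE) for Alas1 and -0.08 ± 0.10 (SE) for Fech. At Day 5 it was -0.43 ± 0.52 (SE), 0.07 ± 0.26 (SE) and -0.09 ± 0.11 (SE) in the same order. With Ajcl Day 5 replicate 1 included, the Day 5 values were -0.04 ± 0.56 (SE) for Alas2, -0.35 ± 0.31 (SE) for Alas1, of opposite sign, and -0.22 ± 0.13 (SE) for Fech. Over all tested genes, 0.159% were called at baseline and 0.165% at Day 5. The difference between the substrains in their Day 5 change was -0.05 ± 0.64 (SE) for Alas2, 0.26 ± 0.35 (SE) for Alas1 and -0.01 ± 0.14 (SE) for Fech on the log2 scale. With that library included it was 0.38 ± 0.75 (SE), -0.13 ± 0.44 (SE) and -0.11 ± 0.18 (SE) in the same order, so the signs for Alas2 and Alas1 turned. In that comparison edgeR called 0.0% of 17002 genes, with 1363 at an unadjusted p under 0.05 and 22 called by DESeq2.

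The 6 enzymes between the synthase and ferrochelatase were measured in every library, and 1 of the 6, Alad, fell in ByJcl, where 4.83% of all tested genes fell. Alad encodes the second enzyme, aminolevulinate dehydratase, and went from 473.8, 412.2 and 404.6 CPM in ByJcl baseline to 332.8, 231.2 and 221.5 CPM in ByJcl Day 5. Every Day 5 library of both substrains was below every baseline library, with Ajcl at 377.0, 433.1 and 370.4 CPM before and 349.9, 357.7 and 275.8 CPM after, as for 1.66% of all tested genes. The log2 fold change was -0.73 ± 0.16 (SE, adjusted p = 0.0184, edgeR) in ByJcl and -0.30 ± 0.18 (SE, adjusted p = 0.666) in Ajcl, and the difference between the substrains was not called (adjusted p = 0.67). The ByJcl call was lost when ByJcl Day 5 replicate 2 or 3 or ByJcl baseline replicate 1 or 2 was left out, with adjusted p between 0.000716 and 0.0852 over 18 alternatives.

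**Figure D2:**
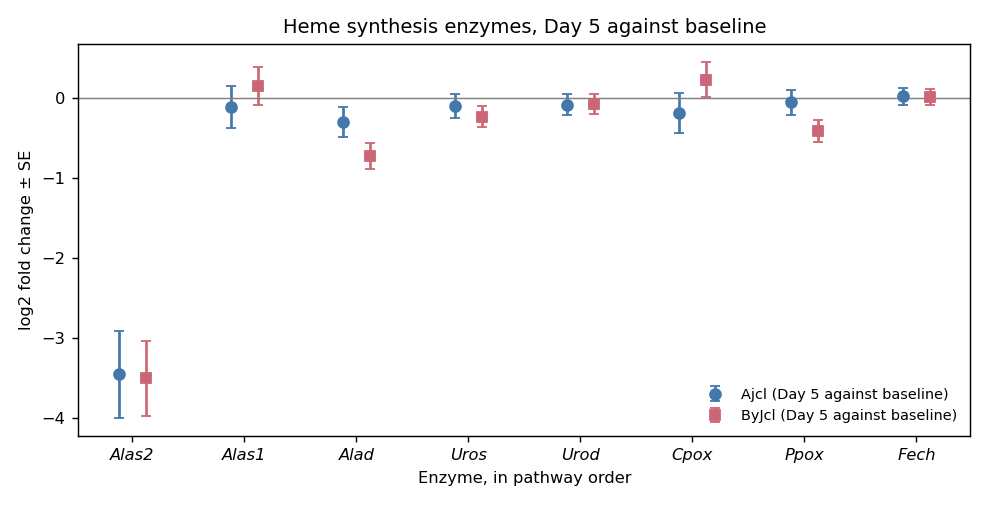
Log2 fold change of Day 5 against baseline, with SE, for 8 enzymes of heme synthesis in pathway order, the 2 synthases first, in Ajcl (circles) and ByJcl (squares), from the fit of 11 libraries. Alas2 lies at -3.46 and -3.50, and every other enzyme drawn lies between -0.73 and 0.23.

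Uros, Urod, Cpox and Ppox of that list were not called in either substrain. In ByJcl, Ppox, which makes protoporphyrin, had -0.42 ± 0.14 (SE, adjusted p = 0.0740) and Uros -0.24 ± 0.13 (SE, adjusted p = 0.291). Urod had -0.08 ± 0.12 (SE, adjusted p = 0.724) and Cpox 0.23 ± 0.22 (SE, adjusted p = 0.567), all by edgeR. In Ajcl the median of the 6 enzymes was -0.14 against a median of -0.0091 over all tested genes. In ByJcl the median of the 6 was -0.20 against 0.0066 over all.

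Red cell membrane and cytosol genes made a list of 20, of which 13 passed the filter on low counts. In ByJcl 1 rose, 1 fell and 11 were not called, and in Ajcl none of 13 was called, with list medians of -0.26 in both. Over all tested genes 10.6% were called in ByJcl and 0.312% in Ajcl, and 2 calls among 13 genes are close to that background. Sptb, which encodes the red cell beta spectrin and is also expressed outside red cells, fell in ByJcl from 34.8, 33.5 and 41.2 CPM to 16.4, 21.2 and 16.9 CPM, a log2 fold change of -1.02 ± 0.17 (SE, adjusted p = 0.00513, edgeR). In Ajcl Sptb had 30.7, 44.2 and 43.5 CPM at baseline and 15.3, 41.4 and 32.9 CPM at Day 5, with replicate 1 the lowest, and with all 12 libraries in the fit its ByJcl adjusted p was 0.0597. The difference between the substrains for Sptb was not called (adjusted p = 0.62).

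Ank1, which encodes the ankyrin that ties band 3 to spectrin, rose in ByJcl from 0.796, 0.336 and 0.401 CPM to 2.78, 2.62 and 2.33 CPM. The log2 fold change was 2.32 ± 0.51 (SE, adjusted p = 0.0175, edgeR), and it was lost without ByJcl Day 5 replicate 2 or ByJcl baseline replicate 2 or 3 (highest adjusted p = 0.0752). In Ajcl Ank1 was 2.35 ± 0.57 (SE, adjusted p = 0.154). The direction is opposite to that of Alas2 and Sptb.

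Genes of this list with few counts went in different directions. Summed over the 6 baseline and then the 6 Day 5 libraries, Hemgn had 2 and 26 counts, Trim58 36 and 46, Epb42 24 and 24, Rhag 10 and 10, Rhd 67 and 39, Kel 8 and 4, Car1 2 and 2 and Cldn13 4 and 0. Ahsp and Trim10 are given in full because they had almost no counts at Day 5, and were chosen after their values were seen. Ahsp, the chaperone of free alpha globin, had 20, 8 and 6 counts in Ajcl baseline, 10, 2 and 14 in ByJcl baseline and 0 in all 6 Day 5 libraries. Pooled over both substrains, that is 60 counts at baseline and 0 at Day 5.

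Trim10, an erythroid ring finger gene, had 84 counts summed over the baseline libraries and 5 over the Day 5 libraries, with at most 2 in any Day 5 library. Both genes passed the filter on low counts through their baseline libraries alone, so no fitted fold or p is given, and neither was called in either substrain.

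**Figure D3:**
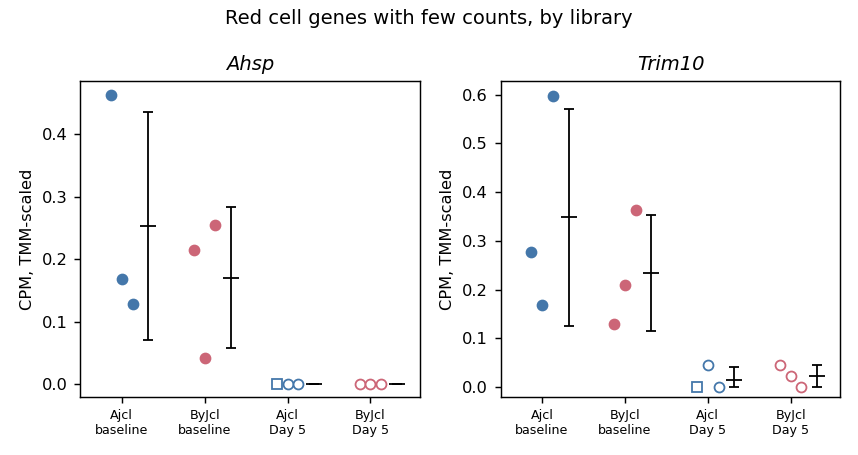
CPM per library of Ahsp and Trim10, each on its own axis, with filled points for baseline, open points for Day 5, a square for Ajcl Day 5 replicate 1, and bars for the mean ± SD of 3 libraries with the lower bar cut at 0. Ahsp is at 0 in all 6 Day 5 libraries, and Trim10 has at most 2 counts in a Day 5 library.

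A further 6 genes of the list with at least 10 counts per library on average were not called. Slc4a1, which encodes band 3 and is also made by collecting duct intercalated cells, had -0.47 ± 0.58 (SE, adjusted p = 0.863) in Ajcl and -1.44 ± 0.54 (SE, adjusted p = 0.112) in ByJcl. Bpgm, the enzyme that makes bisphosphoglycerate in red cells, had -0.17 ± 0.13 and -0.02 ± 0.12 (SE) in the same order, Gmpr -0.39 ± 0.17 and -0.28 ± 0.15 (SE), and Mkrn1 0.00 ± 0.09 and -0.06 ± 0.08 (SE). Tspan33 had -0.26 ± 0.33 and -0.26 ± 0.29 (SE) and Ermap -0.18 ± 0.64 and 0.29 ± 0.55 (SE). None of these 6 genes passed the test in any comparison.

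Of the other globin genes, 3 were tested and 1, Ngb, fell in ByJcl, where 4.83% of all tested genes fell. Neuroglobin, which it encodes, is an oxygen-binding globin of neurons and other cells and no red cell gene. It had 13.5, 12.6 and 11.2 CPM in Ajcl baseline, 7.23, 9.97 and 5.58 CPM in Ajcl Day 5, 11.8, 10.6 and 14.9 CPM in ByJcl baseline and 4.43, 4.37 and 3.61 CPM in ByJcl Day 5. Every Day 5 library was below every baseline library, as for 1.66% of all tested genes. The log2 fold change was -0.67 ± 0.25 (SE, adjusted p = 0.365) in Ajcl and -1.60 ± 0.22 (SE, adjusted p = 0.00261) in ByJcl (edgeR), and the difference between the substrains was not called (adjusted p = 0.62). Cygb, cytoglobin, was not called, at -0.03 ± 0.38 and -0.04 ± 0.34 (SE).

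Of 9 listed genes for erythroid transcription factors and the erythropoietin receptor, 7 were tested and none was called in either substrain. Over all tested genes 0.312% were called in Ajcl and 10.6% in ByJcl. Epor had 0.33 ± 0.28 (SE) in Ajcl and 0.36 ± 0.25 (SE) in ByJcl, and Tal1 0.02 ± 0.12 and -0.22 ± 0.11 (SE). Gata1 had at most 12 counts in a library, with 0 in 5 of 12. Klf1 had at most 12 counts as well.

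Of the iron and heme handling lists outside the pathway itself, a single gene in each of the first 2 was called in ByJcl, 1 of 12 and 1 of 11, near the 10.6% of all tested genes called there. In the list of 12 mitochondrial iron and porphyrin genes, Slc25a37, the mitoferrin that brings iron into mitochondria of red cell precursors, fell in ByJcl from 93.5, 81.3 and 85.4 CPM to 57.8, 61.8 and 52.9 CPM. Its log2 fold change was -0.61 ± 0.13 (SE, adjusted p = 0.0147, edgeR) in ByJcl and -0.42 ± 0.15 (SE, adjusted p = 0.329) in Ajcl. Each Day 5 library of both substrains was below each baseline library, as for 1.66% of all tested genes. The ByJcl call was lost only without ByJcl baseline replicate 1 (adjusted p = 0.0568, edgeR). The other 11 genes of the list were not called.

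In the list of iron uptake, storage and export, 1 of 11 genes fell in ByJcl and none in Ajcl. Over all tested genes 4.83% fell in ByJcl and 0.00588% in Ajcl. Steap3, the ferrireductase that acts on iron from transferrin, had a log2 fold change of -0.82 ± 0.21 (SE, adjusted p = 0.0321, edgeR) in ByJcl and -0.31 ± 0.24 (SE, adjusted p = 0.752) in Ajcl. That call was lost when any ByJcl baseline library, or ByJcl Day 5 replicate 2 or 3, was left out, and with the compared groups alone, with adjusted p up to 0.13. Tfrc, the transferrin receptor, and Fth1, ferritin heavy chain, were not called. None of the 11 genes of heme breakdown, transport and scavenging was called, against 0.312% of all tested genes in Ajcl and 10.6% in ByJcl. Hmox1 was among the 11, at -0.32 ± 0.32 (SE) in Ajcl and 0.24 ± 0.28 (SE) in ByJcl.

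Of 11 symbols listed as regulators of Alas1 transcription, Bmal1 and Arntl name the same gene, and 10 were present in the counts. Of these 10, 9 were tested and 1 was called, in ByJcl, near the 10.6% of all tested genes called there. Arntl, a core clock activator, had 1.03, 2.35 and 2.15 CPM in ByJcl baseline and 2.96, 6.16 and 10.6 CPM in ByJcl Day 5, a rise of 1.82 ± 0.49 (SE, adjusted p = 0.0371, edgeR) on the log2 scale. In Ajcl it was 0.31 ± 0.52 (SE, adjusted p = 0.899). The ByJcl call was lost without any ByJcl baseline library, without ByJcl Day 5 replicate 2 or 3, and with the compared groups alone. Alas1 itself was 0.14 ± 0.24 (SE) in that comparison. Nr1d1, a clock repressor, ranged from 35.3 to 306 CPM within ByJcl baseline.

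Markers of blood cells and of kidney cells were measured beside these genes. The 14 red cell markers summed to 3.82 to 8.57 CPM in Ajcl baseline, 2.80 to 6.50 in ByJcl baseline, 3.70 to 8.60 in Ajcl Day 5 and 2.37 to 2.50 in ByJcl Day 5. Slc4a1 made up between 25.2% and 91.3% of that sum over the libraries. Without Slc4a1, a choice made after its values were seen, the other 13 genes summed to 2.00 to 2.38 CPM in Ajcl baseline, 1.64 to 2.57 in ByJcl baseline, 0.751 to 1.15 in Ajcl Day 5 and 1.08 to 1.86 in ByJcl Day 5. The adult globin genes are not in these sums, as they were at 0.

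No marker of other blood cells was called lower at Day 5. The 9 platelet markers summed to 8.43 to 11.6 CPM over the baseline libraries and 9.10 to 13.2 CPM over the Day 5 libraries, with 0 of 8 tested markers called in either substrain. The 9 neutrophil markers summed to 4.72 to 11.2 CPM in Ajcl baseline and 2.19 to 7.59 CPM in Ajcl Day 5, and to 7.42 to 19.5 CPM and 10.2 to 21.3 CPM in ByJcl, with 0 of 7 called. The 9 leukocyte markers summed to 47.65 to 74.8 CPM in Ajcl baseline and 34.6 to 81.5 CPM in Ajcl Day 5, and to 84.1 to 136.1 CPM and 83.5 to 164 CPM in ByJcl. Of these, Cd68 rose in ByJcl (1.17 ± 0.24, SE, adjusted p = 0.0128, edgeR) and none fell, 1 of 9 where 10.6% of all tested genes were called. All 8 podocyte markers fell in ByJcl, and of 7 endothelial markers Ehd3 and Flt1 fell there, against 4.83% of all tested genes (adjusted p = 0.0271 and 0.0471, edgeR). With all 12 libraries the 8 podocyte calls stayed, while the adjusted p was 0.0524 for Ehd3 and 0.109 for Flt1. In Ajcl none of these was called. None of the 4 tested of 5 mesangial markers was called. Their part in the result for Alas2 was not tested.

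Alas1 and Fech were higher in libraries with more proximal tubule RNA. Since the counts of these genes were used in the choice, the correlations are descriptions without a test. Across 12 libraries, Alas1 against the summed proximal tubule markers, both on the log2 scale, had a Pearson r of 0.794 and a Spearman rho of 0.748. Without the 2 libraries farthest from the median tubule sum r was 0.675. Within the 6 baseline libraries r was 0.916 and within the 6 Day 5 libraries 0.815. For Fech the values were r = 0.776 and rho = 0.797, with 0.908 without the 2 farthest, 0.874 within baseline and 0.814 within Day 5.

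**Figure D4:**
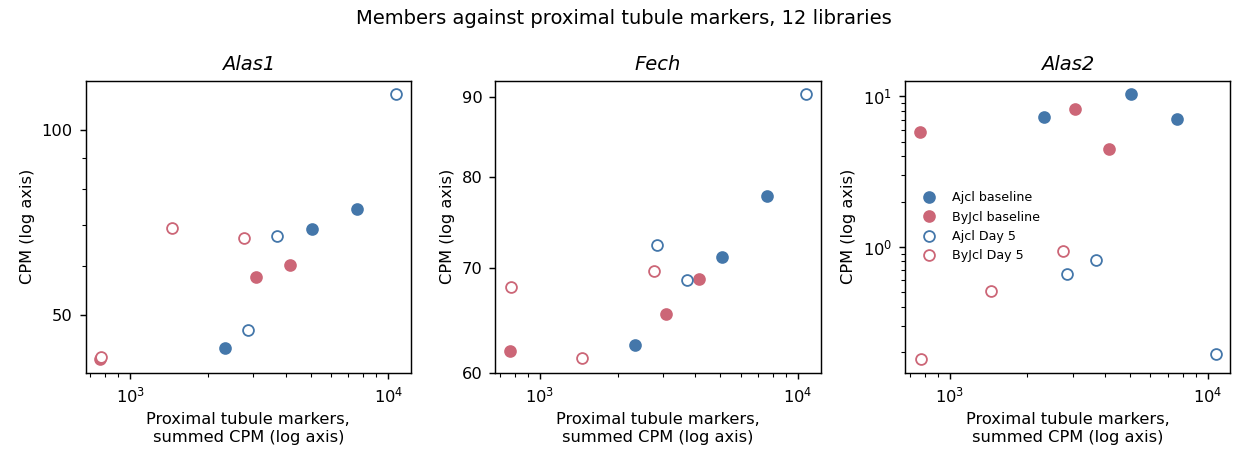
CPM of Alas1, Fech and Alas2 in each of 12 libraries against the summed CPM of 11 proximal tubule markers, on log axes, with filled points for baseline, open points for Day 5, and a colour for each substrain. Alas1 and Fech increase with the tubule sum (Pearson r of 0.794 and 0.776), while Alas2 falls into separate baseline and Day 5 clusters.

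Distal nephron markers, 7 genes, gave r = 0.757 and rho = 0.685 for Alas1, and r = 0.658 and rho = 0.643 for Fech. Without the 2 farthest libraries r was 0.619 and 0.803, within baseline 0.828 and 0.840, and within Day 5 0.741 and 0.582. Alas2 was taken within each time, since its libraries fell into separate clusters. Against the proximal tubule sum r was 0.279 and rho 0.20 over 6 baseline libraries, and r was 0.0546 and rho 0.257 over 6 Day 5 libraries. Leaving out the 2 farthest libraries gave r = 0.0873 and 0.780, so these values rest on single libraries. Against the distal nephron sum r was 0.422 and rho 0.60 at baseline, and r was 0.174 and rho 0.0857 at Day 5, with r = 0.882 and -0.0577 without the 2 farthest.

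Slc4a1, which is no member, was tested, in 2 relations. The permutations ran over all 12 libraries and took no account of the 4 groups. Differences between the groups therefore enter these p-values. Against the proximal tubule sum over 12 libraries it had r = 0.932 (permutation p = 2e-05, the smallest that 100000 resamples can give, adjusted p = 4e-05) and rho = 0.923 (permutation p = 6e-05, adjusted p = 0.00012). Without the 2 farthest r was 0.913, within baseline 0.939 and within Day 5 0.953. Against the distal nephron sum it had r = 0.874 (permutation p = 8e-05, adjusted p = 8e-05) and rho = 0.811 (permutation p = 0.00214, adjusted p = 0.00214), with 0.795 without the 2 farthest, 0.874 within baseline and 0.943 within Day 5.

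The genes whose pattern over the 12 libraries was most like that of Alas1 were listed by Pearson r of log2 CPM, as a description. They were Gpx1 (r = 0.959), Atp6v1c1 (0.953), Mtfp1 (0.945), Perp (0.943), Gc (0.942), Oaf (0.937), Gstm5 (0.937) and Gm31641 (0.937). The libraries differed in tubule content, from 766.6 to 10730 CPM of summed proximal tubule markers. For these 8 genes the correlations of deviations from the group means were between 0.935 and 0.968. With Ajcl Day 5 replicate 1 left out, 3 of the 8 stayed in the list of 8.

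For Alas2, taken after the summed globins proved to be 0, the 8 were Zfp251 (r = 0.960), Tlr7 (0.930), Plpp3 (0.920), Cracdl (0.915), Trmt44 (0.914), Vash1 (0.913), Usp46 (0.912) and Marveld1 (0.905). Here the correlations rest on the step between baseline and Day 5, since the correlation of deviations from the group means was between 0.0182 and 0.745. With Ajcl Day 5 replicate 1 left out, 4 of the 8 stayed in the list of 8.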

How the data were processed

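The gene counts were deposited by the authors as 2 tables, 1 for baseline and 1 for Day 5, with raw whole-number counts per symbol and no normalization. Per the labels and the study's methods, the authors ran Trimmomatic, then STAR against the GRCm39 genome, then featureCounts, on poly(A)-selected, strand-specific paired-end reads. The treatment of reads that map to several genes is not given in the sources used here, and neither is the annotation. Between 77.1% and 82.9% of counts from 1 to 49 were even in a library, so mates may have been counted separately, and intervals from counts would then be too narrow. Floors cover counting error only.

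Libraries were grouped by the labels. Here, edgeR 4.0.16 (TMM, filterByExpr by group, quasi-likelihood test, 1 coefficient per group, R 4.3.3) was fitted to 11 libraries, without Ajcl Day 5 replicate 1, over 17002 genes, with Benjamini-Hochberg adjustment and calls at an adjusted p below 0.05. Scripts were tested on simulated data. CPM values use TMM over 12 libraries, and the correlations used log2(CPM + 0.5). Alternatives were DESeq2 1.42.0, other size factors, other filters, all 12 libraries, a replicate block, the compared groups alone and leaving out each library.

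The members and lists were chosen with earlier results of these data known. The genes named are the 7 members, list genes called in a comparison, the other 6 heme enzymes, red cell and globin genes with a mean of at least 10 counts per library, and the 8 genes most like Alas1. For the rule on likeness, the summed globins were replaced by Alas2 because they were 0. Some genes of these lists are not reported here.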

Additional observations from a re-analysis of the deposited data

How the results depend on the processing

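The 4 globin members could not be fitted under any setting. For the 3 fitted members, 259 of 267 alternative log2 fold changes kept their value within the spread between replicates, or their call, 2 moved further and 6 lost the call, and none with a call changed sign. The 6 were Alas2 in Ajcl, at -3.54 under the replicate block and between -3.62 and -3.27 without each Ajcl library of the comparison. The 2 were Alas2 without ByJcl Day 5 replicate 3, at -1.11 between the substrains at Day 5 and -0.70 for the difference in Day 5 change. With all 12 libraries the Day 5 change of Alas2 was -3.87 in Ajcl and -3.49 in ByJcl, both called.

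The counts of genes called moved more, and the cause was not tested. Between the substrains at baseline, 27 genes became 101 with DESeq2 and 15 with the compared groups alone, and 12 to 29 leaving out 1 library, lowest without Ajcl baseline replicate 1. At Day 5, 28 became 535 with DESeq2, 56 without a filter, 72 with 12 libraries and 6 with the compared groups alone, and 9 to 218 leaving out 1 library, lowest without Ajcl Day 5 replicate 2 and highest without replicate 3. For Day 5 against baseline in Ajcl, 53 became 301 with DESeq2, 99 without a filter and 33 with the compared groups alone, and 11 to 180 leaving out 1 library, lowest without Ajcl Day 5 replicate 3 and highest without replicate 2. In ByJcl, 1800 became 1197 with 12 libraries and 680 to 2056 leaving out 1 library, lowest without ByJcl Day 5 replicate 2. The interaction, 0 with edgeR, was 22 with DESeq2 and 0 to 5 leaving out 1 library.

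Same-numbered libraries deviated together in 5 of 15 pairs (r above 0.1), with r between -0.359 and 0.508, so the numbers were not taken as pairing. With the replicate block, 26 genes were called in Ajcl in place of 53, 1592 in ByJcl in place of 1800, 19 between the substrains at baseline and 19 at Day 5, and 0 for the interaction.

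Depth limits the sparse red cell genes, since a 3-count limit is 0.0546 to 0.0693 CPM in a library.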
